A study of Mus musculus with 27 samples.

Results

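The genes described here are 10 genes of class I antigen processing. They were chosen by name, as the rows of the deposited count table whose Ensembl identifier carries one of 10 symbols in the GENCODE M21 annotation: Psmb8, Psmb9, Psmb10, Psme1, Psme2, Tap1, Tap2, Tapbp, Erap1 and Nlrc5. All 10 were found among the 43346 genes of the table, and all 10 were among the 14482 genes with enough counts to be tested. RNA was sequenced from liver cells labelled as hepatocytes of female mice at 12 weeks of age. The 27 libraries came from 9 inbred strains, with 3 libraries in each. Of these A/J, 129S1/SvImJ, C57BL/6J, NOD/ShiLtJ, DBA/2J and NZO/HlLtJ are laboratory strains, and WSB/EiJ, PWK/PhJ and CAST/EiJ are wild-derived. Strain was the only factor that differed by the labels, and the labels name no transgene, deletion or treatment in any group. The libraries of a strain are called biological replicates in the labels. The series related variation between strains in expression and chromatin to genetic variation, and only the expression data were used here.

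Class I antigen processing turns proteins made inside a cell into short peptides that are shown on the cell surface to CD8+ T cells. The proteasome cuts the protein, the TAP transporter carries peptides into the endoplasmic reticulum (ER), and a loading complex places them on class I molecules. Interferons raise the genes of this pathway in most cell types, in hepatocytes as well as in immune cells, through interferon regulatory factors and through the transactivator NLRC5. Among the gene products, PSMB8 (LMP7), PSMB9 (LMP2) and PSMB10 (MECL-1) are the inducible catalytic subunits that replace PSMB5, PSMB6 and PSMB7 in the immunoproteasome, and PSME1 and PSME2 form the PA28 activator that caps it.

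In the mouse genome (GRCm38) 4 of the genes are neighbours in the major histocompatibility complex (MHC) on chromosome 17: Psmb9 (34181987 to 34187764), Tap1 (34187553 to 34197225), Psmb8 (34197721 to 34201454) and Tap2 (34203527 to 34216321). Tapbp lies on the same chromosome at 33915899 to 33929292. Psmb10 and Nlrc5 are on chromosome 8, Psme1 and Psme2 are on chromosome 14, and Erap1 is on chromosome 13. Psmb9 and Tap1 are read in opposite directions, and their annotated exons overlap by 212 bases. The promoter windows of 250 bases before and 50 bases from the start, taken from RefSeq (GRCm38.p6), were matched for 8 of the 10 genes, and Tap2 and Nlrc5 had no entry. The Tap1 window is shown because it is also the upstream region of Psmb9: the windows of the 2 genes share 275 bases. It is chr17:34187306-34187605, plus strand:
Tap1: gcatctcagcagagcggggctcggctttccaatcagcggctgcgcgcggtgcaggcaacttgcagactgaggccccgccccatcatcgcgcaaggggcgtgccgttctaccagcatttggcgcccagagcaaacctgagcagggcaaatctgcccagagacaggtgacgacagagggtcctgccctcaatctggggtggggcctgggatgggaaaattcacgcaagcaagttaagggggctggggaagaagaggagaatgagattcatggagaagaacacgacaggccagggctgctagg
The windows of Psmb8 (chr17:34197945-34198244, plus strand), Psme1 (chr14:55578244-55578543, plus strand) and Erap1 (chr13:74639603-74639902, plus strand) are shown because each held a match, in capitals, to an interferon-related motif:
Psmb8: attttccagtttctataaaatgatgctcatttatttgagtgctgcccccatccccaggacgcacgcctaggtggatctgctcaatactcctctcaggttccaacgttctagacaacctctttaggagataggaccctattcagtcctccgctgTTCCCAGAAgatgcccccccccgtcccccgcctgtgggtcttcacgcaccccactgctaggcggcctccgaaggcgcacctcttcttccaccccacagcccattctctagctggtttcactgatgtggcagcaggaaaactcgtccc
Psme1: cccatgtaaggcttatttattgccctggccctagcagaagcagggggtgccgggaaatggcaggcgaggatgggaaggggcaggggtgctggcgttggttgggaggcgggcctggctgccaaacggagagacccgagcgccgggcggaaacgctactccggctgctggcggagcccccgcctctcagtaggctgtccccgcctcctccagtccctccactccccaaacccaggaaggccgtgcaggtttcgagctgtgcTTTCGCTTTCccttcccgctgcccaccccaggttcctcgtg
Erap1: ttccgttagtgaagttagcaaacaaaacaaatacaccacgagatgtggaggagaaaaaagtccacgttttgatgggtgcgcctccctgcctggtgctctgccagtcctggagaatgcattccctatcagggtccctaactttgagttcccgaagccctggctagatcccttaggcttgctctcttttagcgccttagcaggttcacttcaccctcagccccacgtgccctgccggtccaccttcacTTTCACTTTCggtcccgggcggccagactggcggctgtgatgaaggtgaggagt
Both strands were searched for 2 motifs. The gamma-activated site, TTCNNNGAA, was matched in Psmb8 at bases -97 to -89, counted from the start with no base 0. It was present in 8.3% of all 32851 promoter windows of this length. The core of the interferon-stimulated response element, GAAA followed by any 2 bases and GAAA again, was matched on the opposite strand in Psme1 at bases 10 to 19 and in Erap1 at bases -4 to 6. It was present in 3.44% of all windows. The windows of Psmb9, Psmb10, Psme2, Tap1 and Tapbp held neither string of letters. Such matches describe the reference sequence only, and the sequence of the other strains was not examined.

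Levels are given as CPM, the usual depth-scaled count, from estimated counts and the library total after TMM scaling, each as the mean ± SD of 3 libraries. The libraries held 17015956 to 35078511 estimated counts, so 1 count corresponded to between 0.0253 and 0.0516 CPM. Between strains, edgeR's quasi-likelihood test was used with Benjamini-Hochberg adjustment over all genes, and a difference with an adjusted p under 0.05 is called higher or lower. Hepatocyte markers such as Alb were abundant in every library (107000 to 329000 CPM summed over 10 genes). Markers of other liver cells were present at lower and uneven levels: the summed level ranged from 35.1 to 442 CPM for 10 Kupffer cell genes and from 64.9 to 833 CPM for 10 endothelial genes. In PWK/PhJ replicate 1 both lists were at their highest. A/J replicate 2 stood apart from its strain in several of the antigen processing genes, so values with and without it are given below. The genes of T and NK cells were nearly absent (0.155 to 2.52 CPM summed over 10 genes, 9 of them too low to test). Fewer cells of a type and less RNA per cell cannot be told apart in such libraries.

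All 10 antigen processing genes differed among the 9 strains, against a background of 74.2% of all genes tested, so a strain effect in itself was common. The spread between strains was wider than for the usual gene: the median log2 range between the highest and the lowest strain mean was 1.44 for the 10 genes and 0.95 for all genes tested (on log2(CPM + 0.5)). The ratio of the highest to the lowest strain mean ran from 1.65 for Psme1 and Psme2 to 5.56 for Psmb8. CAST/EiJ was the lowest strain for 6 of the 10 genes and DBA/2J was the highest for 4. In the comparison of each strain with the mean of the other 8, 30 of 90 differences were called, 17 higher and 13 lower. These 9 comparisons share libraries and are not independent.

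**Figure D1:**
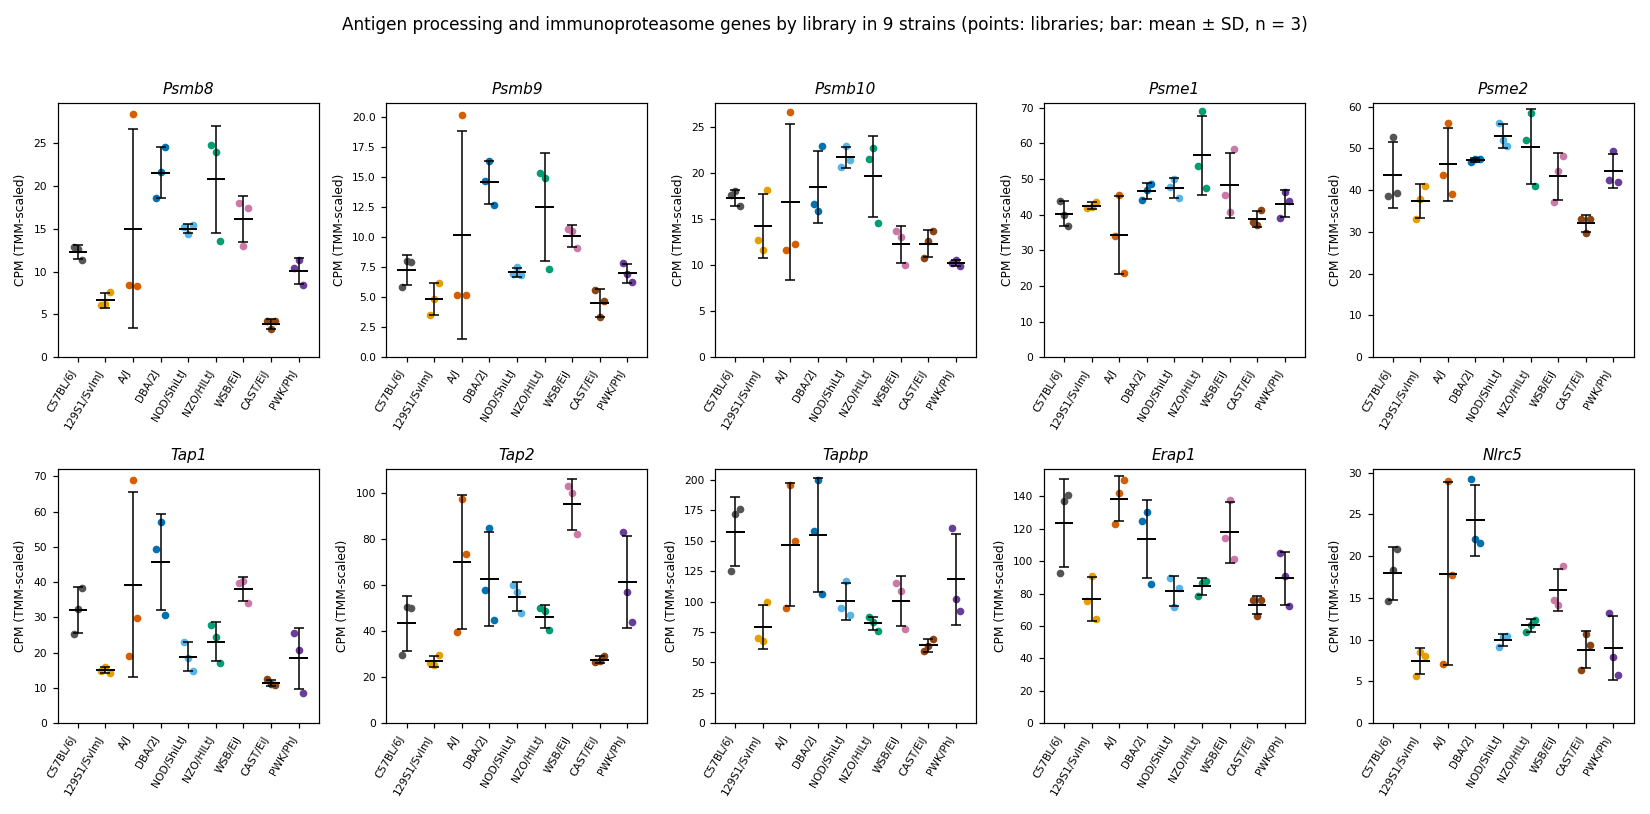
CPM (linear axis from 0) of the 10 genes in each of the 27 libraries by strain. Points are libraries and bars the mean ± SD of 3. A single A/J library (replicate 2) lies far above the other A/J libraries for Psmb8, Psmb9, Psmb10 and Tap1, while CAST/EiJ has the lowest mean for 6 of the 10 genes, with means of 3.88 CPM for Psmb8 and 11.4 CPM for Tap1.

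Among the inducible catalytic subunits, Psmb8 varied most. Its level was 18.6, 21.6 and 24.5 CPM in the DBA/2J libraries, 24.8, 24.0 and 13.6 in NZO/HlLtJ, and 18.0, 13 and 17.4 in WSB/EiJ. In the middle of the order it was 15.2, 14.4 and 15.4 CPM in NOD/ShiLtJ, 12.9, 12.6 and 11.4 in C57BL/6J, and 10.4, 11.4 and 8.46 in PWK/PhJ. It was 6.11, 6.18 and 7.63 CPM in 129S1/SvImJ and 4.20, 3.26 and 4.18 in CAST/EiJ. Every CAST/EiJ library thus lay below every library of the other 8 strains, a separation seen for 3.82% of all genes in that strain. A/J gave 8.40, 28.4 and 8.30 CPM, so that its replicate 2 was the highest of all 27 libraries and the other libraries were below those of C57BL/6J. DBA/2J exceeded CAST/EiJ by 2.48 ± 0.33 (log2 ± SE, edgeR adjusted p = 2.73e-06, a pair in which 32.2% of all genes differed), and 15 of the 36 pairs of strains differed, where the median gene had 8. Against the mean of the other strains, Psmb8 was higher in DBA/2J (0.95 ± 0.21) and NZO/HlLtJ (0.89 ± 0.21) and lower in 129S1/SvImJ (-0.96 ± 0.25) and CAST/EiJ (-1.84 ± 0.28).

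Psmb9 was called in the same 4 strains as Psmb8, over a narrower range: 0.95 ± 0.25 in DBA/2J, 0.71 ± 0.25 in NZO/HlLtJ, -0.84 ± 0.29 in 129S1/SvImJ and -0.94 ± 0.30 in CAST/EiJ. The 129S1/SvImJ call was lost under 21 of 36 alternatives, the NZO/HlLtJ and CAST/EiJ calls under 4 each and the DBA/2J call under 2. The NZO/HlLtJ difference was 0.55 (adjusted p = 0.238) without its replicate 1 and 0.57 (adjusted p = 0.219) without its replicate 2. The level of Psmb9 was 14.7, 16.3 and 12.7 CPM in DBA/2J and 15.3, 14.9 and 7.35 in NZO/HlLtJ. At the low end it was 3.50, 4.81 and 6.16 CPM in 129S1/SvImJ and 5.62, 3.32 and 4.64 in CAST/EiJ. The libraries of 129S1/SvImJ and CAST/EiJ overlapped, and both sets lay below all DBA/2J libraries. A/J again split, with 20.2 CPM in replicate 2 and 5.21 and 5.17 in the others. The ratio of the DBA/2J to the CAST/EiJ mean was 3.22, a difference of 1.68 ± 0.37 (log2 ± SE, edgeR adjusted p = 0.00108). The Psmb8 to Psmb9 ratio of counts was not constant: its log2 value was -0.20 ± 0.20 in CAST/EiJ (mean ± SD, n = 3) and 1.08 ± 0.12 in NOD/ShiLtJ. In CAST/EiJ Psmb8 had fewer counts than Psmb9 in all 3 libraries, unlike in any other strain, where the lowest log2 ratio in a library was 0.31.

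Psmb10, the remaining inducible catalytic subunit, followed another order of strains. It was highest in NOD/ShiLtJ, at 20.7, 23.0 and 21.5 CPM, and lowest in PWK/PhJ, at 10.3, 10.6 and 9.89 CPM. The PWK/PhJ libraries were close together and lay below those of every other strain except for 1 WSB/EiJ library at 10 CPM. NOD/ShiLtJ exceeded PWK/PhJ 2.12-fold (1.08 ± 0.24 on the log2 scale, edgeR adjusted p = 0.00143, with 27.8% of all genes called in this pair). DBA/2J, the top strain for Psmb8 and Psmb9, was at 18.5 ± 3.85 CPM, and CAST/EiJ, the bottom strain, at 12.4 ± 1.48 CPM. Neither passed the test against the other strains for Psmb10 (adjusted p = 0.33 and 0.121).

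Relative to the constitutive subunit that each replaces, the inducible subunits covered a wide range between strains. The log2 ratio of CPM per kb of the longest transcript was -1.64 ± 0.15 (mean ± SD, n = 3) for Psmb8 to Psmb5 in DBA/2J and -4.58 ± 0.21 in CAST/EiJ, a 7.69-fold span. In the same unit Psmb8 thus stood at 32.0% of Psmb5 in DBA/2J and at 4.17% in CAST/EiJ. The 3 DBA/2J libraries and the 3 CAST/EiJ libraries did not overlap. Psmb9 to Psmb6 spanned 3.59-fold, from -3.33 ± 0.44 in DBA/2J to -5.17 ± 0.36 in 129S1/SvImJ. Psmb10 to Psmb7 spanned 2.14-fold, from -0.59 ± 0.33 in C57BL/6J to -1.69 ± 0.36 in PWK/PhJ. The size of each span does not depend on transcript length, whereas the level does: with the length of the longest coding transcript, Psmb10 stood at 27% of Psmb7 in C57BL/6J instead of 66.4%. The Psmb8 to Psmb5 span was wider than that of Psmb8 alone since Psmb5 was 45.9, 43.2 and 41.7 CPM in CAST/EiJ and 25.9, 29.7 and 40.8 CPM in DBA/2J. The counts of Psmb5 were not whole in any of the 27 libraries, so its level is uncertain, and no test was made on these ratios.

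**Figure D2:**
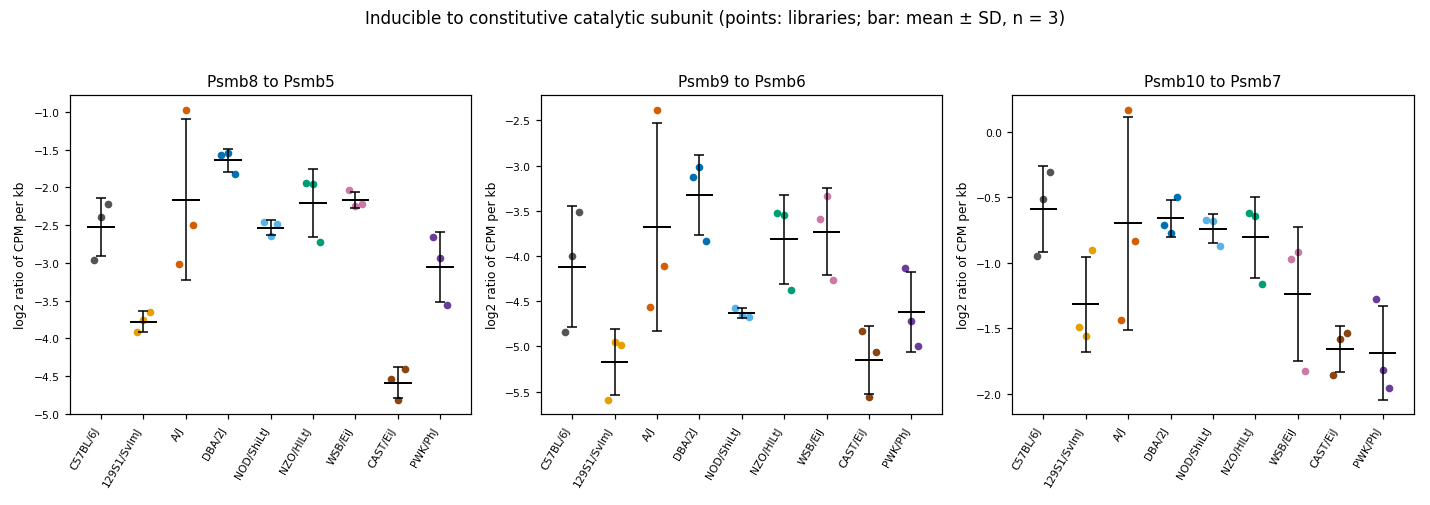
Log2 ratio of CPM per kb of the longest transcript for each inducible catalytic subunit to its constitutive counterpart, by strain. Points are libraries and bars the mean ± SD of 3. DBA/2J is highest (-1.64) and CAST/EiJ lowest (-4.58) for Psmb8 to Psmb5, and A/J replicate 2 lies above its strain in all 3 panels.

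The genes of the PA28 activator, which opens the end of the proteasome, varied least. Psme1 was 53.5, 68.9 and 47.3 CPM in NZO/HlLtJ and 34.1, 45.4 and 23.5 CPM in A/J. The highest A/J library, replicate 2, came close to the lowest NZO/HlLtJ library, but the 2 strains did not overlap. The difference was 0.72 ± 0.18 on the log2 scale (edgeR adjusted p = 0.00299, where 36.1% of all genes differed), and only 3 of 36 pairs of strains differed, each of them involving NZO/HlLtJ. The strain effect on Psme1 was the weakest of the 10 (adjusted p = 0.0307), and without NZO/HlLtJ replicate 2 it was lost (adjusted p = 0.107). It was also lost without NZO/HlLtJ replicate 1, without A/J replicate 1, and after GC and length trends were removed.

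Psme2 was highest in NOD/ShiLtJ, at 56.1, 52.0 and 50.6 CPM, and lowest in CAST/EiJ, at 33.2, 29.8 and 33.1 CPM. The difference was 0.72 ± 0.15 on the log2 scale (edgeR adjusted p = 0.000827, where 27.6% of all genes differed). Of the 8 pairs of strains that differed, 7 involved CAST/EiJ, the only strain that differed from the mean of the others (-0.51 ± 0.12). Psme2 was the other gene, with Psmb8, for which all CAST/EiJ libraries were below every other library (all genes, 3.82%). The margin was small, the highest CAST/EiJ and the lowest 129S1/SvImJ library both being 33.2 CPM when rounded. Per kb of the longest transcript, Psme2 had the highest level of the 10 genes (45.9 CPM per kb over all libraries) and Nlrc5 the lowest (1.80), and these 2 places were the same with the longest coding transcript.

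The chains of the peptide transporter, Tap1 and Tap2, had their highest means in DBA/2J, A/J and WSB/EiJ, in another order. The place of A/J rested on replicate 2: the mean of its other libraries was 24.5 CPM for Tap1, below the 32.0 CPM of C57BL/6J, and 56.5 CPM for Tap2, below the 61.4 CPM of PWK/PhJ. The place of DBA/2J for Tap2 was not firm either, as its mean of 62.6 CPM was close to that of PWK/PhJ (edgeR adjusted p = 0.962). For Tap2 DBA/2J was not called higher than the other strains (0.35 ± 0.19, adjusted p = 0.283). DBA/2J and WSB/EiJ did not pass the test against each other for either gene (adjusted p = 0.711 and 0.142). Tap1 was 49.4, 57.1 and 30.7 CPM in DBA/2J, 39.8, 40.2 and 34.2 in WSB/EiJ, and 25.3, 32.4 and 38.4 in C57BL/6J. It was 27.8, 24.4 and 17 CPM in NZO/HlLtJ, 23.1, 18.6 and 14.9 in NOD/ShiLtJ, and 25.7, 20.7 and 8.66 in PWK/PhJ. It was 14.7, 15.9 and 14.3 CPM in 129S1/SvImJ and 12.5, 11.1 and 10.7 in CAST/EiJ. CAST/EiJ was below all strains except for 1 PWK/PhJ library. A/J gave 19.1, 69 and 29.9 CPM, and was called higher than the other strains (0.78 ± 0.25). Without its replicate 2 that difference was 0.10 (adjusted p = 0.844), so the call rested on a single library. DBA/2J exceeded CAST/EiJ by 2.00 ± 0.36 on the log2 scale (edgeR adjusted p = 0.000155), and 15 of 36 pairs differed.

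Tap2 was highest in WSB/EiJ, at 103, 100 and 82.3 CPM, followed by A/J at 39.6, 97.5 and 73.4 and DBA/2J at 58.1, 84.8 and 44.8 CPM. It was 83.2, 57 and 44.0 CPM in PWK/PhJ, 60, 57.2 and 48.0 in NOD/ShiLtJ, 49.9, 48.6 and 40.6 in NZO/HlLtJ, and 29.7, 50.3 and 50.1 in C57BL/6J. It was lowest in 129S1/SvImJ (26.0, 25.1 and 29.5 CPM) and CAST/EiJ (26.6, 27 and 29.4 CPM), whose libraries overlapped. WSB/EiJ exceeded 129S1/SvImJ 3.55-fold (1.83 ± 0.27 on the log2 scale, edgeR adjusted p = 2.45e-05, where 26.1% of all genes differed). C57BL/6J, the next strain up, did not pass the test against CAST/EiJ (0.65 ± 0.27, adjusted p = 0.0581). The A/J call (0.54 ± 0.19) was lost without replicate 2 (0.22, adjusted p = 0.514) or replicate 3 (0.49, adjusted p = 0.169). The Tap1 to Tap2 ratio of counts was highest in C57BL/6J and DBA/2J, at -0.42 ± 0.20 and -0.45 ± 0.19 (log2, mean ± SD, n = 3), and lowest in PWK/PhJ and NOD/ShiLtJ, at -1.83 ± 0.46 and -1.56 ± 0.16. Their libraries did not overlap.

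Tapbp encodes tapasin, which tethers class I molecules to the transporter. Its highest strain means were those of C57BL/6J (125, 172 and 176 CPM), DBA/2J (158, 200 and 106 CPM) and A/J (95, 196 and 150 CPM), each called higher than the mean of the other strains. None of the 3 passed the test against PWK/PhJ (adjusted p = 0.241, 0.279 and 0.356), the strain with the next mean, and the libraries overlapped. It was lowest in CAST/EiJ, at 59.3, 63.3 and 69.6 CPM. NZO/HlLtJ, high for Psmb8, Psmb9 and Psme1, was the third lowest strain for Tapbp at 82.3 ± 5.50 CPM. C57BL/6J exceeded CAST/EiJ by 1.3 ± 0.26 on the log2 scale (edgeR adjusted p = 0.000317, where 38.0% of all genes differed). The A/J call was lost without replicate 2 (0.26, adjusted p = 0.419) or replicate 3. The DBA/2J call was lost without its replicate 3 (0.38, adjusted p = 0.369), without its replicate 2 and with the replicate block, and the C57BL/6J call without its replicate 2 (0.57, adjusted p = 0.104) or 4 (0.55, adjusted p = 0.13).

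Erap1 trims peptides in the ER to the length that class I molecules hold. It was highest in A/J, at 123, 142 and 150 CPM, where replicate 2 did not stand apart, and lowest in CAST/EiJ, at 76.3, 66.2 and 76.2 CPM. The libraries of these 2 strains did not overlap, and the difference was 0.92 ± 0.19 on the log2 scale (edgeR adjusted p = 0.00037, where 42.4% of all genes differed). A/J (0.57 ± 0.13) and C57BL/6J (0.39 ± 0.13) were called higher than the other strains, the latter just inside the threshold (adjusted p = 0.045). The C57BL/6J call was lost under 21 of 36 alternatives, with a difference of 0.28 (adjusted p = 0.348) without C57BL/6J replicate 4 and 0.30 (adjusted p = 0.26) without replicate 2. Although its range was only 1.89-fold, 15 of 36 pairs of strains differed, as many as for Psmb8 and Tap1.

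Nlrc5, the transactivator of class I genes, was highest in DBA/2J (29.2, 22.1 and 21.6 CPM) and lowest in 129S1/SvImJ (5.64, 8.58 and 7.99 CPM). The ratio of means was 3.28 (1.71 ± 0.33 on the log2 scale, edgeR adjusted p = 0.000795, where 14.6% of all genes differed). A/J covered almost the whole range within 1 strain, at 7.03, 29.0 and 17.7 CPM. Nlrc5 was 9.12, 10.3 and 10.4 CPM in NOD/ShiLtJ and 10.9, 11.8 and 12.4 CPM in NZO/HlLtJ, strains in which Psmb8 was at or above its middle level. In CAST/EiJ it was at 8.81 ± 2.25 CPM, a log2 difference of -0.59 ± 0.26 from the other strains that did not pass the test (adjusted p = 0.0746).

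Strain by strain, CAST/EiJ was low for most of the 10 genes. Psmb8, Psmb9, Psme2, Tap1, Tap2, Tapbp and Erap1 were lower there than in the other strains, 7 of the 10 genes against 17.8% of all genes, and all 10 differences were below 0, with a median of -0.71 (all genes, -0.01). Without CAST/EiJ replicate 4 the Erap1 and Psmb9 calls were lost (-0.40 and -0.75, edgeR adjusted p = 0.0902 and 0.113). With the replicate block the Psmb9, Tapbp and Erap1 calls were lost. 129S1/SvImJ was the next lowest: Psmb8, Psmb9, Tap2 and Nlrc5 were lower, 4 of 10 against 7.86%, again with none of the 10 above 0 and a median of -0.64 (all genes, 0.02). Of these calls, Nlrc5 was lost without any 1 of the 3 129S1/SvImJ libraries (adjusted p = 0.0567 to 0.167) and Psmb8 without replicate 1 or 2 (adjusted p = 0.0681 and 0.0661). DBA/2J was the converse, with Psmb8, Psmb9, Tap1, Tapbp and Nlrc5 higher, 5 of 10 against 9.5%, all 10 above 0 and a median of 0.48 (all genes, 0.01). Without DBA/2J replicate 3 the Psmb9, Tap1 and Tapbp calls were lost (0.87, 0.83 and 0.38, edgeR adjusted p = 0.0842, 0.0872 and 0.369). Psmb8 and Nlrc5 were still higher.

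The other strains were mixed. In NZO/HlLtJ the proteasome genes Psmb8, Psmb9 and Psme1 were higher, 3 of 10 against 14.8%, while Tapbp stood at -0.42 ± 0.20 and Tap1 at -0.08 ± 0.26, neither of which passed the test. The Psme1 call was lost without NZO/HlLtJ replicate 2 (0.25, adjusted p = 0.259). In WSB/EiJ Tap1 and Tap2 were higher, 2 of 10 against 15.5%, and the Tap1 call was lost without any 1 of its libraries (adjusted p up to 0.128). In C57BL/6J Tapbp and Erap1 were higher, 2 of 10 against 11.6%. In NOD/ShiLtJ only Psmb10 was higher (1 of 10 against 9.2%), a call lost without any 1 of its libraries (adjusted p = 0.0803 to 0.151) and with GC and length trends removed. In PWK/PhJ only Psmb10 was lower (1 of 10 against 14.8%). The shares for WSB/EiJ, C57BL/6J, NOD/ShiLtJ and PWK/PhJ lie near their backgrounds. In A/J 4 genes of the loading machinery were higher (Tap1, Tap2, Tapbp and Erap1, against 15.9%) and Psme1 was lower (1 of 10 against 11.6%). The Psme1 call was lost without A/J replicate 3 (-0.19, adjusted p = 0.404), without A/J replicate 1 and with GC and length trends removed. Without A/J replicate 2, Erap1 was the 1 gene still higher in A/J, Psmb8 and Psmb9 passed the test as higher in WSB/EiJ (0.59 and 0.48), and Psmb8 and Psme2 did so in NOD/ShiLtJ (0.47 and 0.33). Tap1 in 129S1/SvImJ (-0.70), Nlrc5 in C57BL/6J (0.63) and Psmb10 in NZO/HlLtJ (0.45) passed as well, and Erap1 in C57BL/6J did not.

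**Figure D3:**
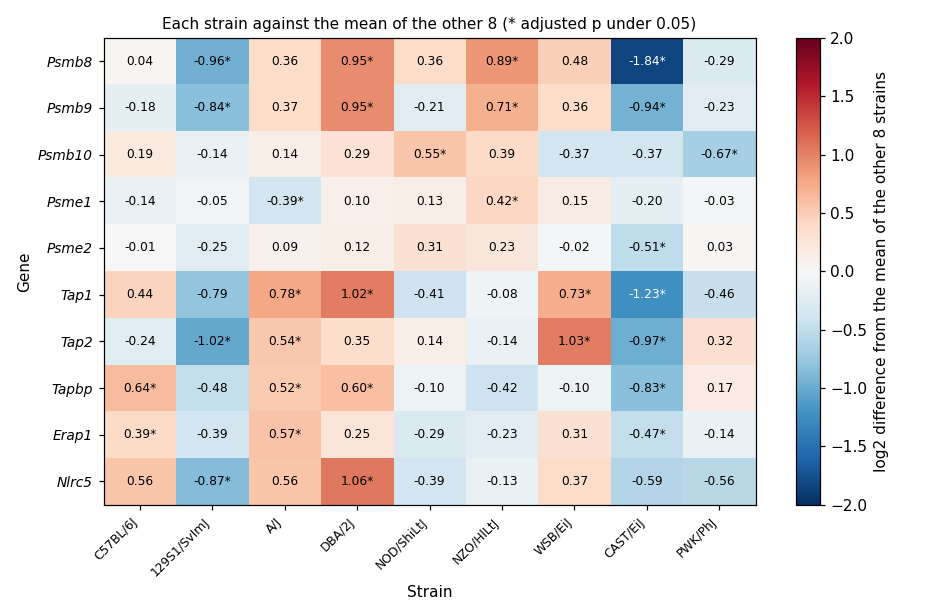
Log2 difference of each strain (columns) from the mean of the other 8 strains for the 10 genes (rows), with asterisks at an edgeR adjusted p under 0.05. The CAST/EiJ and 129S1/SvImJ columns hold negative values only, and the DBA/2J column positive values only, with medians of -0.71, -0.64 and 0.48.

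When the strains were ordered by mean for each gene, no neighbouring pair differed by edgeR's adjusted p (0 of 80, 2 of 80 at an unadjusted p under 0.05), a share near the 2.96% of neighbouring pairs called over all genes tested. Of the 30 called differences from the mean of the other strains, 9 held under all 36 alternative settings: Psmb8 in CAST/EiJ and DBA/2J, Psme2 and Tap1 in CAST/EiJ, Tap2 in CAST/EiJ, 129S1/SvImJ and WSB/EiJ, Nlrc5 in DBA/2J and Erap1 in A/J. The other 21 fell short of the threshold under at least 1 setting, and none changed sign.

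Across the 27 libraries the genes fell into looser and tighter pairs. These correlations of log2 CPM are descriptions, since libraries of a strain share their genotype and all share their scaling. Over all libraries the closest pair was Psmb8 and Psmb9 (r = 0.89, and 0.87 within strains, on deviations from the strain mean). Psmb8 and Psme2 also varied together (r = 0.82, and 0.65 within strains). Tap1 and Nlrc5 gave r = 0.86, and 0.68 within strains. The closest pair within strains was Tap2 and Tapbp (r = 0.93, and 0.64 over all libraries). Within the 5 proteasome genes the median r over 10 pairs was 0.57, within Tap1, Tap2, Tapbp, Erap1 and Nlrc5 it was 0.73, and between the 2 sets it was 0.39 over 25 pairs. Within strains these medians were 0.68, 0.66 and 0.36, so the first 2 sets were then about equally tight. The lowest value over all libraries was -0.35, for Psme1 and Erap1. The ratio of these 2 ran from a log2 value of -0.59 ± 0.29 in NZO/HlLtJ to -2.05 ± 0.55 in A/J (mean ± SD, n = 3).

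Other genes of the pathway were read from lists. Of the 3 constitutive catalytic subunits, all differed among strains, beside 74.2% of all genes. Psmb5 and Psmb6 were lower in A/J (all genes, 11.6%). Psmb6 had the widest range of them, from 59.1 ± 4.15 CPM in NOD/ShiLtJ to 35.4 ± 5.61 CPM in A/J. Of 11 other subunits of the 20S core, 10 differed, beside 74.2% of all genes. Psma3 had the widest range (64.2 ± 15 CPM in PWK/PhJ, 30.6 ± 3.58 in C57BL/6J), an uncertain value with counts not whole in all 27 libraries. Psma6 fell short of the threshold (adjusted p = 0.0634). In CAST/EiJ, where 7 of the 10 antigen processing genes were lower, 4 of these 11 core subunits were higher and none lower (median 0.31, with 20.1% of all genes higher). In A/J 6 of the 11 were lower and none higher (median -0.37, with 11.6% of all genes lower). Of 18 subunits of the 19S regulatory particle, 13 differed, a share near the 74.2% of all genes, Psmd13 most widely (53.5 ± 3.07 CPM in CAST/EiJ, 26.4 ± 7.19 in A/J), while Psmd1 did not pass (adjusted p = 0.13). There too 9 were higher in CAST/EiJ and 9 lower in A/J (all genes, 20.1% and 11.6%). Across libraries the mean of the core subunits ran against Erap1 (r = -0.89), Tap1 (r = -0.74) and Tapbp (r = -0.72), and with Psme1 (r = 0.49).

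Among 8 other activators, inhibitors and assembly factors of the proteasome, 6 differed, again near the 74.2% of all genes. Psmf1, an inhibitor, was 32.8 ± 3.95 CPM in WSB/EiJ and 16.1 ± 3.05 CPM in C57BL/6J, and Psme3, the PA28 gamma subunit, did not pass (adjusted p = 0.0647). Of 8 cytosolic and ER peptidases 6 differed, near the same 74.2%, and 5 of the 8 were higher in CAST/EiJ, against 20.1% of all genes. Dnpep had the widest range (40.6 ± 4.57 CPM in NZO/HlLtJ, 20.8 ± 0.745 in A/J), while Lap3 did not pass (adjusted p = 0.0678). All 12 further genes of peptide loading and the ER differed, beside 74.2% of all genes. Of these 7 were lower in 129S1/SvImJ (all genes, 7.86%) and 5 higher in WSB/EiJ (all genes, 15.5%). Sec61g, a subunit of the ER translocon, had the widest range (13.9 ± 3.67 CPM in PWK/PhJ, 1.59 ± 0.501 in 129S1/SvImJ), but its counts were not whole in any of the 27 libraries, which makes its value uncertain. B2m, the light chain of class I molecules, was 1500 ± 225 CPM in C57BL/6J and 830 ± 158 CPM in 129S1/SvImJ.

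The interferon response genes moved with several of the antigen processing genes. All 15 on the list differed among strains, beside 74.2% of all genes. Of these 14 were higher in DBA/2J (all genes, 9.5%), 14 lower in CAST/EiJ (all genes, 17.8%) and 9 lower in 129S1/SvImJ (all genes, 7.86%). The summed level was 403 ± 83.3 CPM in DBA/2J, 129 ± 11.1 CPM in 129S1/SvImJ and 117 ± 7.78 CPM in CAST/EiJ. Ifi44 had the widest range, from 8.05 ± 1.92 CPM in DBA/2J to 0.0101 ± 0.0174 in CAST/EiJ. The CAST/EiJ mean lay below the CPM of 1 count (0.0253 to 0.0516), so the size of this range is uncertain. Isg15, a ubiquitin-like protein, was 9.81 ± 3.05 CPM in DBA/2J and 0.379 ± 0.0577 CPM in CAST/EiJ. Across libraries the list mean was closest to Psmb8 (r = 0.83) and Psme2 (r = 0.74), with Psmb9 and Tapbp at 0.72. It was least like Psme1 (r = 0.31) and Erap1 (r = 0.41). Within strains it was closest to Tap1 (r = 0.78), Psmb9 (0.74) and Tap2 (0.74), with Psmb8 at 0.70 and Psme2 at 0.56. Erap1 (0.27) was then the least like it. Of the 15 interferon response genes, 5 were lower (all genes, 9.25%) and 1 higher (all genes, 15.5%) in WSB/EiJ, where Tap1 and Tap2 were higher. In A/J, where 4 antigen processing genes were higher, 1 of the 15 was higher, a share below the 15.9% of all genes. In PWK/PhJ 6 were higher (all genes, 19.4%) and 2 lower (all genes, 14.8%), with Psmb10 alone lower among the antigen processing genes. Those higher numbered 7 in C57BL/6J, 8 in NZO/HlLtJ and 5 in NOD/ShiLtJ (all genes, 11.6%, 14.8% and 9.2%), with none lower.

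Of 18 regulators of class I and interferon signalling, 17 could be tested and 11 differed, beside 74.2% of all genes. Irf9, an interferon regulatory factor, was 27.9 ± 3.38 CPM in DBA/2J and 8.74 ± 2.90 CPM in CAST/EiJ. Of the 17, 4 were higher in A/J (all genes, 15.9%), namely the interferon receptor genes Ifngr1, Ifngr2, Ifnar1 and Ifnar2. In CAST/EiJ 6 of the 17 were lower (all genes, 17.8%): the same 4 receptor genes, Irf2 and Irf9. Irf1 did not pass the test (19.6 ± 2.68 CPM in DBA/2J, 13.1 ± 2.47 in 129S1/SvImJ, adjusted p = 0.235).

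Genes whose pattern over the 27 libraries was most like that of each member were ranked by Pearson's r among 8360 tested genes averaging at least 5 CPM. Psmb8 was closest to Apol9a (r = 0.917), Herc6 (0.894) and Usp18 (0.871), and Psme2 to the same 3 genes, led by Herc6 (0.831). Psmb9 was closest to Parp12 (0.802), A1bg and Herc6, and Psmb10 to Ifi47 (0.789), Ifit3 and Ly6a. Tap1 was closest to Tmem184a (0.848), Slc38a7 and Enpp5, and Tap2 to Enpp5 (0.884), Itm2c and Slc46a3. Tapbp was closest to Asah1 (0.902), B2m (0.881) and Cldn3, and Erap1 to Snx14 (0.934), Slc39a9 and Insr. Psme1 was closest to Cmbl (0.793), Pgm1 and Carhsp1, and Nlrc5 to Rab4b (0.822), Map2k7 and Naa80.

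Markers of immune and endothelial cells, which also express antigen processing genes, moved with some of these results. All 10 Kupffer cell markers, among them Adgre1, Clec4f and Vsig4, were higher in C57BL/6J, 7 in A/J and 6 in PWK/PhJ, where Marco was lower (all genes higher, 11.6%, 15.9% and 19.4%). Of the same 10, 5 were lower in CAST/EiJ and 4 in 129S1/SvImJ (all genes lower, 17.8% and 7.86%). The summed Kupffer level was 281, 260 and 210 CPM in C57BL/6J, 66.0, 72.5 and 59.5 CPM in CAST/EiJ, and 131, 195 and 35.1 CPM in DBA/2J. Across libraries the mean of the list was closest to Tapbp (r = 0.81) and Erap1 (r = 0.65), and it was less close to Psmb8 (r = 0.28) and Psmb10 (r = 0.11). Within strains it was closest to Tapbp (r = 0.75), Tap2 (0.65) and Tap1 (0.60), with Erap1 at 0.37, Psmb8 at 0.30 and Psmb10 at 0.28. DBA/2J replicate 4 had the lowest Kupffer level of all libraries. Its Psmb8 (24.5 CPM) was the highest of its strain, and its Tap1 (30.7 CPM) and Tapbp (106 CPM) were the lowest. PWK/PhJ replicate 1, with 442 CPM of Kupffer and 833 CPM of endothelial markers, had 161 CPM of Tapbp against 102 and 91.9 in the other PWK/PhJ libraries, and 10.4 CPM of Psmb8 against 11.4 and 8.46. All 10 endothelial markers were higher in PWK/PhJ (all genes, 19.4%). In NZO/HlLtJ, where Psmb8, Psmb9 and Psme1 were higher, 8 of the 10 endothelial markers (median -1.17) and 4 of 8 stellate cell markers were lower, against 12.9% of all genes. Of the 10 hepatocyte markers, 5 were higher and 2 lower in A/J (all genes, 15.9% and 11.6%). In CAST/EiJ 4 were lower and 1 higher (all genes, 17.8% and 20.1%), and in WSB/EiJ 4 were higher (all genes, 15.5%). Of 8 tested dendritic and B cell markers, 4 were higher in C57BL/6J (all genes, 11.6%), 5 higher and 1 lower in PWK/PhJ (19.4% and 14.8%), and 3 lower in NOD/ShiLtJ (5.72%).

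In A/J replicate 2 the summed level of 10 genes of dendritic and B cells, mainly MHC class II genes, was 175 CPM against 25.0 and 43.7 in the other A/J libraries, its Kupffer level was 292 CPM against 136 and 198, and its interferon response level was 309 CPM against 179 and 229. The same library had 3.4 times the Psmb8 and 3.89 times the Psmb9 level of the mean of the other A/J libraries, but 1.04 times the Erap1 level. Over all libraries the mean of the dendritic and B cell list gave r = 0.07 with Psmb8, 0.22 with Psmb9 and -0.01 with Psmb10. Within strains these values were 0.60, 0.77 and 0.57. For the 10 genes r ran from -0.17 (Psme1) to 0.63 (Tapbp) over all libraries, and from 0.26 (Psme1) to 0.81 (Tapbp) within strains. NZO/HlLtJ replicate 3 was below the other libraries of its strain in Psmb8 (13.6 CPM against 24.8 and 24.0) and in the summed interferon response (167 CPM against 257 and 250), MHC class II (10.9 CPM against 47.2 and 45) and Kupffer lists (36.3 CPM against 76.9 and 94.3). With the mean of the Kupffer and endothelial lists as covariates, the strain effect stayed under the threshold for all 10 genes, while 14 of the 30 called differences were lost and 4 were gained. Psmb8, Tap1, Tap2, Tapbp and Psme2 remained lower in CAST/EiJ, and Psmb9 (-0.53, adjusted p = 0.147) and Erap1 (-0.35, adjusted p = 0.082) did not. Also lost were Tap1, Tap2 and Tapbp in A/J (0.15, 0.15 and 0.16), Tapbp and Erap1 in C57BL/6J (0.12 and 0.20), and Psmb8, Psmb9 and Nlrc5 in 129S1/SvImJ (-0.76, -0.44 and -0.60). The calls for Psmb8, Psmb9 and Psme1 in NZO/HlLtJ (0.69, 0.68 and 0.30) and Psmb10 in PWK/PhJ (-0.58) made up the rest. Which cells the RNA of each gene came from was not tested.

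**Figure D4:**
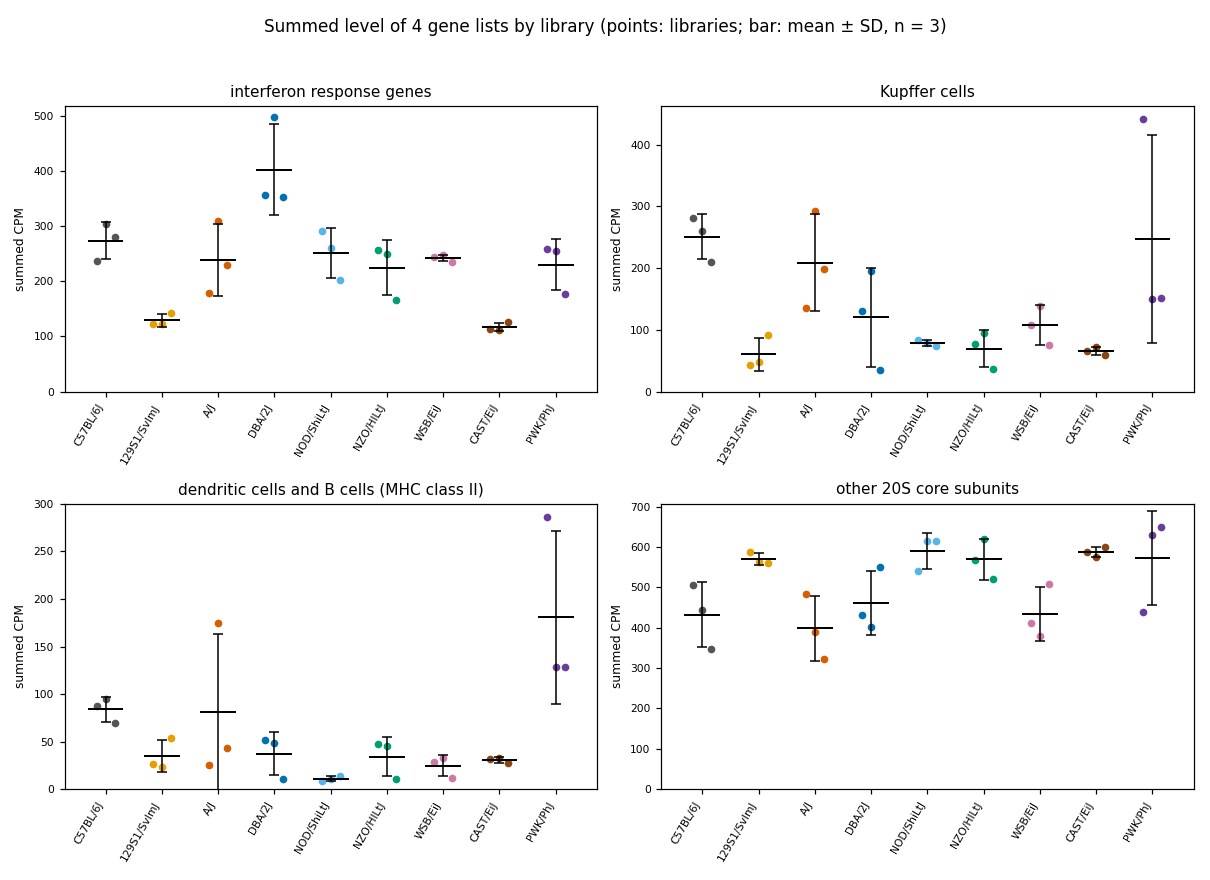
Summed CPM (linear axis from 0) of 4 gene lists in each library by strain. Points are libraries and bars the mean ± SD of 3, with the lower end of a bar cut at 0 in A/J for the MHC class II list. The interferon list is highest in DBA/2J (403 CPM) and lowest in CAST/EiJ (117 CPM), the Kupffer and MHC class II lists peak in PWK/PhJ replicate 1 (442 and 286 CPM), and the 20S core list has its lowest mean in A/J.

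Several features of the counts limit these values. The counts of Tapbp held fractions in 26 of 27 libraries, and those of Tap1 in 24, Tap2 in 22, Psmb9 in 21, Psme2 in 14 and Psmb8 in 11, as happens when reads are divided between features, and they were whole in all libraries for Psmb10, Psme1, Erap1 and Nlrc5. The library kit is not stated to keep strand, so reads in the 212 bases shared by Psmb9 and Tap1, in 498 bases shared by Psmb8 and Gm20496, in 533 bases shared by Tap2 and Gm15821, in 904 bases shared by Tapbp and Gm19412, and in 834 bases shared by Erap1 and Cast cannot be assigned by strand. The genome sequence to which each strain's reads were aligned is not given in the sources used here, and its part in the differences at the MHC genes was not tested.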

How the data were processed

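Gene expression was measured by RNA sequencing of poly(A)-selected RNA in 27 libraries, 3 from each of 9 strains, grouped by the strain in the labels. The authors deposited 1 table of estimated counts (expected counts) per Ensembl gene, not scaled to depth, with 14.7% of values not whole. GRCm38 (mm10), FastQC 0.11.5 and DESeq2 are named in the submitters' processing notes. The aligner, counting program and annotation are not given in the sources used here. Counts were rounded, genes filtered with filterByExpr and libraries scaled by TMM (factors 0.722 to 1.23) in edgeR 4.0.16 under R 4.3.3. All 27 libraries were fitted with strain as the only term, and glmQLFTest gave the strain effect, each strain against the mean of the other 8, and 36 pairs, with Benjamini-Hochberg adjustment over 14482 genes. Depth was 17015956 to 35078511 counts per library. Replicates of a strain differed beyond counting noise (chi-square per degree of freedom 24.9 to 138 over 27 pairs). Symbols were taken from GENCODE M21, which named 42462 of 43346 identifiers, and promoter sequences from RefSeq. The code was tested on simulated data. Alternatives were DESeq2 1.42.0, its size factors, other filters, no rounding, marker lists as covariates, the replicate number, and each library left out. Removal of GC and length trends, the loss of A/J replicate 2 with PWK/PhJ replicate 1, and coding lengths were added after seeing the data. The genes and lists were chosen with earlier results of these data known. Named beyond the 10 genes were, per list, the called gene with the widest range and 1 not called, and the 3 genes most alike to each member. Other genes were named after their values were seen: Isg15, B2m, Irf2, Irf9, the interferon receptors and overlapping genes. A result on 1 gene is not reported here.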

Additional observations from a re-analysis of the deposited data

How the results depend on the processing

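Under 36 alternatives (chiefly each library left out in turn) no called difference of an antigen processing gene changed sign. The strain effect was called for all 10 genes under each alternative except for Psme1, as given above, and for 9350 to 11445 of all genes. DESeq2 and its size factors, a mean of at least 10 counts and unrounded counts lost no call, and DESeq2 gained 2. With GC and length trends removed, calls fell to 0 for lower in A/J, 1 for higher in C57BL/6J and 0 for higher in NOD/ShiLtJ, Psmb9 was lost in 129S1/SvImJ, and 3 calls were gained: Psme2 (-0.32) and Erap1 (-0.43) in 129S1/SvImJ and Psme2 (0.33) in A/J. With Kupffer and endothelial covariates, 11 calls were higher in place of 17, with 1 lower in 129S1/SvImJ, 1 higher in A/J, 0 higher and 1 lower in C57BL/6J, 2 higher in NOD/ShiLtJ and 0 higher in NZO/HlLtJ. Without a filter 5 calls were gained (Tap1 in 129S1/SvImJ, and Nlrc5 in A/J, C57BL/6J, CAST/EiJ and PWK/PhJ, where 2 genes were then lower) and 1 was lost (Erap1 in C57BL/6J). Without A/J replicate 2 and PWK/PhJ replicate 1, 1 was higher in A/J, 4 in C57BL/6J, 3 in NOD/ShiLtJ and 4 in WSB/EiJ, and 3 were lower in PWK/PhJ. With a pseudocount of 1 CPM the Psmb8 to Psmb5 span was 2.66 in place of 2.94 on the log2 scale. The cause of these changes was not tested.

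With 1 library left out, the number of genes called ranged from 1 to 6 for lower in 129S1/SvImJ, 1 to 6 for higher and 0 to 1 for lower in A/J, 0 to 3 for higher in C57BL/6J, 5 to 8 for lower in CAST/EiJ, 2 to 5 for higher in DBA/2J, 0 to 3 for higher in NOD/ShiLtJ, 1 to 5 for higher in NZO/HlLtJ, 1 to 2 for lower in PWK/PhJ and 1 to 4 for higher in WSB/EiJ. The lost calls that turned on a library of the same strain included Tap1 and Psmb9 in DBA/2J without replicate 3, Psmb8 in NZO/HlLtJ without replicate 1 and Tap1 in WSB/EiJ without any 1 of its libraries. With the replicate block, 9 calls were lost, leaving 1 gene higher in A/J and 4 lower in CAST/EiJ, and 9350 genes with a strain effect. The replicate numbers do not pair the libraries: same-numbered libraries gave a median r of 0.023 over 76 pairs, and 7 of 27 libraries were most like one of the same number.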
